A study of Homo sapiens with 96 samples.

Results

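The genes described are the nuclear-encoded subunits of the mitochondrial respiratory chain in A549 cells, a line from a human lung adenocarcinoma. They were chosen by gene symbol alone, as the rows of the deposited table named NDUFA, NDUFB, NDUFC, NDUFS or NDUFV with a number, SDHA to SDHD, CYC1, the UQCR genes, and COX subunits in their ubiquitous form. The rule found 60 of the 60675 genes in the table. There were 36 in complex I, 4 in complex II, 9 in complex III and 11 in complex IV, where NDUFA4 is counted with complex IV, the complex its protein is now assigned to. RNA was sequenced for 96 libraries of cells given vehicle, an extract of Paeoniae Radix (peony root) or 1 of 8 of its ingredients, with 3 libraries in each of 32 groups. The labels put them in 2 batches, each with its own vehicle. In the first batch, a water extract and an ethanol extract were given at 500, 100 or 20 µg/mL. In the second, albiflorin, benzoic acid, catechin, gallic acid, hederagenin, paeonol, paeoniflorin and oleanolic acid were given at 10, 2 or 0.4 µM. All groups are the same unmodified line. The labels state neither the vehicle, nor the time of exposure, nor whether the 3 libraries of a group came from separate cultures. The p-values therefore measure only how these libraries spread, and that spread may be technical.

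The respiratory chain passes electrons from NADH (complex I) and succinate (complex II) through ubiquinone to complex III, and from there by cytochrome c to complex IV, where oxygen is reduced. Complexes I, III and IV pump protons, and ATP synthase uses the gradient. Complexes I, III and IV are built from subunits of both genomes, with a few membrane subunits encoded in mitochondrial DNA and the rest in the nucleus, while complex II is wholly nuclear. The nuclear genes are known for promoters with sites for NRF1 and for ETS factors such as GABP.

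RefSeq promoters (GRCh38.p14, the window from 250 bases before to 50 bases after each start) were given for 50 of the 60 genes. 3 motifs were searched on both strands. The NRF1 core GCGCANGCG was found in 15 of the 50 (30%) and in 8.05% of all 27305 promoters of the table. The ETS core CCGGAAG was found in 15 (30%, against 10.67%) and the YY1 core AAGATGGCG in 7 (14%, against 1.85%). At least 1 of the 3 was found in 30 of the 50 (60%) and in 18.3% of all promoters, so the motifs were more frequent here than in the table at large. By complex, the share with any of the 3 was 16 of 31 in complex I, 3 of 3 in complex II, 6 of 7 in complex III and 5 of 9 in complex IV. A match describes these letters and is not evidence of a bound factor. The 250 bases before the start are shown for 3 genes whose transcripts fell with the ethanol extract at 500 µg/mL and for 1 whose transcript rose, with NRF1 matches in capitals.
NDUFA3 (chr19:54102605-54102854, plus strand): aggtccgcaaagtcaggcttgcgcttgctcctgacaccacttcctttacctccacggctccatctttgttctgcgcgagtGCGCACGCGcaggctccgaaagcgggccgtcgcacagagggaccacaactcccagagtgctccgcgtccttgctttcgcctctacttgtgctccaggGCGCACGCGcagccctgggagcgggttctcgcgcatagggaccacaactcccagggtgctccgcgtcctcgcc
NDUFS6 (chr5:1801157-1801406, plus strand): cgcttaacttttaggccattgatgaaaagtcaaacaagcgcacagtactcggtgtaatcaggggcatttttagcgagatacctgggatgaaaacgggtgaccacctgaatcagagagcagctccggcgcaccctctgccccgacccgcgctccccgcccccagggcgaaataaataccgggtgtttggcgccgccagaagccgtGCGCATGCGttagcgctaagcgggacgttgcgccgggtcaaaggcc
UQCRFS1 (chr19:29213152-29213401, minus strand): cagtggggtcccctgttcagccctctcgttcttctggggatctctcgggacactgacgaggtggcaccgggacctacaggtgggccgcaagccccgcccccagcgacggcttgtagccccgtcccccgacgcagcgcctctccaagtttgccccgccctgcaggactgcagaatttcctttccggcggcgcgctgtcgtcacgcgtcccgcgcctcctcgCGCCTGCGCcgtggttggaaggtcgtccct
COX4I1 (chr16:85799445-85799694, plus strand): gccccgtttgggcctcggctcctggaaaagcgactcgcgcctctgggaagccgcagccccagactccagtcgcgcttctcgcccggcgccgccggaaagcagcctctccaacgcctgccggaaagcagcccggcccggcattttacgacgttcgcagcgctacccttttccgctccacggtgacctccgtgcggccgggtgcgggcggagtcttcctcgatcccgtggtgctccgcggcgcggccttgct
NDUFA3 holds 2 NRF1 matches, NDUFS6 and UQCRFS1 hold 1 each, and COX4I1 holds none of the 3 motifs in this stretch. Its ETS match begins just past the start site, after the printed bases but inside the searched window. Genes that fell were shown only if they held a motif match in this stretch, while no match was required of the gene that rose. NDUFS8, NDUFB10 and NDUFB1, which also fell, hold none of the 3 motifs in the searched window. The 4 promoters are therefore examples and not a contrast of groups. NRF1 was found in 11 of 32 genes that fell with the ethanol extract at 500 µg/mL, 4 of 15 that were not called and 0 of 3 that rose.

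In vehicle of the first batch all 60 transcripts were present, at 12.1 CPM (counts scaled to library size) or more in every library of the batch. Levels between genes were compared only as CPM per kilobase of merged exons (GENCODE v29). The merged exons of all isoforms are longer than most transcripts, so the scale understates genes with many isoforms. The highest levels belonged to small complex IV subunits. COX6B1, which faces the intermembrane space, stood at 308 ± 8.96, COX8A at 200.3 ± 10.2 and COX6A1 at 167 ± 16.7 (SD, n = 3). The medians by complex were 41.2 for complex IV, 30.3 for complex III, 18.7 for complex I and 13.1 for complex II.

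In complex I, the 7 core subunits that carry the flavin and the iron-sulfur clusters or line the quinone site lay from the middle to the bottom of the order. Among them were NDUFS8 at 21.7 CPM per kb, NDUFV2 at 17.7, NDUFV1 at 14.1, NDUFS3 at 11.4, NDUFS1 at 9.17 and NDUFS7 at 2.92, the lowest of the 60. Accessory subunits surround this core and spanned a wider range. Among those named NDUFS or NDUFV, NDUFS5 was at 128, NDUFS6 at 36.4, NDUFS4 at 21.7 and NDUFV3 at 4.62. The NDUFA subunits ran from NDUFA1 at 61.9 through NDUFA8 (36.7), NDUFA12 (31.2), NDUFA6 (25.9), NDUFA3 (19.7), NDUFA7 (16.7), NDUFA2 (14.9), NDUFA13 (13.8), NDUFA11 (9.58), NDUFA10 (8.60) and NDUFA9 (5.33) to NDUFA5 at 3.55. The NDUFB subunits, which sit in the membrane arm, ran from NDUFB10 at 89.3 through NDUFB7 (47.8), NDUFB4 (43.7), NDUFB11 (42.7), NDUFB8 (29.9), NDUFB3 (25.4), NDUFB9 (19.9), NDUFB6 (13.7), NDUFB1 (12.5) and NDUFB2 (7.78) to NDUFB5 at 5.0. NDUFC2 was at 27 and NDUFC1 at 12.1.

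In complex II, the iron-sulfur subunit SDHB was at 21.6 CPM per kb, the flavoprotein SDHA at 12.1, and the membrane anchors SDHD and SDHC at 14.1 and 7.89. In complex III the catalytic subunits led, with the Rieske iron-sulfur protein UQCRFS1 at 73.7 and the heme protein CYC1 at 72.6, which did not differ beyond their spread. The small subunits UQCRH (53.2), UQCR10 (49.7), UQCRQ (30.3), UQCRB (14.7) and UQCR11 (14.1) and the core proteins UQCRC1 (29.3) and UQCRC2 (27.7) lay below. The other complex IV subunits were COX5A at 69.8, COX7C at 46, COX5B at 41.2, COX4I1 at 30, COX7B at 25.7, NDUFA4 at 22.2, COX7A2 at 21.2 and COX6C at 17.3. In vehicle of the second batch the order was led by the same 4 genes, COX8A, COX6B1, COX6A1 and NDUFS5, and NDUFS7 was again the lowest. The plot of vehicle levels shows the 4 complexes side by side.

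**Figure D1:**
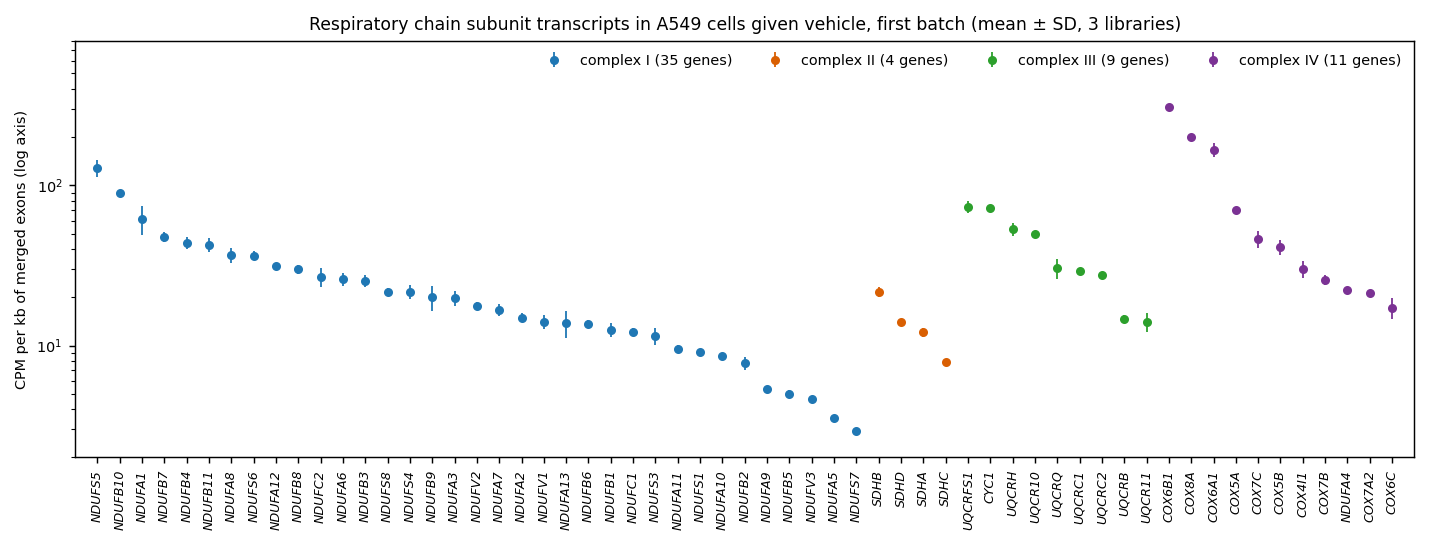
Level of the subunit transcripts named in the text in vehicle libraries of the first batch, in CPM per kilobase of merged exons on a log axis, ordered within complex (points are means and bars the SD of 3 libraries). Levels span from 2.92 for NDUFS7 to 308 for COX6B1, and 3 complex IV subunits and NDUFS5 lie above 100.

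Library totals were 17.9 to 28.1 M counts in the first batch and 15.7 to 35.6 M counts in the second. Of the markers listed for A549 as an epithelial line, KRT8 and KRT18 were at 1233 CPM or more in every library, and EPCAM was low in the first batch (0.785 to 5.2 CPM). Of the immune markers, PTPRC was at 0 in 19 of 21 libraries of the first batch and in 68 of 75 of the second. CD14, a receptor of monocytes that other cells can also express, was at 2.14 to 5.46 CPM in the first batch and 2.31 to 6.95 in the second, above 1 CPM in all 96 libraries. The share of counts on mitochondrially encoded genes ranged from 16.9 to 22.1% in first-batch vehicle and from 14.2 to 18.6% in the 18 extract libraries. Second-batch vehicle held 14.5 to 14.9%, while the 72 ingredient libraries spread from 0.822 to 18.9%. 16 of these libraries lay under 5%. In 4 libraries (catechin at 10 and 2 µM, gallic acid at 2 and 0.4 µM, 1 library each), COL1A2, a fibroblast collagen, stood at 485 to 606 CPM, against at most 0.843 in the other 71. The summed level of the 7 fibroblast markers was 966 to 1237 CPM in these 4 and 42 to 186 in the others, and DCN was at most 0.941 CPM. These 18 libraries (some meet both marks) are named below for some of the results that include them, but not for all. The labels do not say what set them apart, and their part in the results was tested only by leaving them out.

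With the ethanol extract at 500 µg/mL, most of the subunit transcripts fell. 40 of the 60 were lower than vehicle and 4 were higher (edgeR quasi-likelihood test, adjusted p under 0.05 over all genes). Of the 16854 genes tested, 34.4% were lower and 34.7% higher in this comparison. The median log2 difference of the 60 was -0.22, beside 0.00 for all genes, and 15 fell by more than 0.5 on the log2 scale. In data simulated from the levels and spread of the whole first batch, 50 genes were changed 1.5-fold in this extract group. Of these, 98% were recovered, though far fewer genes were changed there than were called in the real comparison. Bulk RNA cannot tell a lower level per mitochondrion from fewer mitochondria, nor fewer cells of one kind from less RNA per cell.

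NDUFS8, a core subunit that carries iron-sulfur clusters (chr11:68030617-68036644, GRCh38), stood at 93.8, 103 and 97.9 CPM in the vehicle libraries and at 51.1, 50.1 and 54.2 in the treated ones. The groups were far apart, and the log2 difference was -0.92 ± 0.06 (SE, edgeR adjusted p = 2.9e-12). NDUFA3, a small membrane subunit (chr19:54102728-54109257), gave 45.4, 45.9 and 54.8 CPM with vehicle and 24.9, 23.5 and 26.4 with the extract. Its fall of 0.96 on the log2 scale (SE 0.09, edgeR adjusted p = 3.0e-09) was the largest of the 60. For NDUFB10, in the membrane arm (chr16:1959508-1961975), the vehicle libraries held 92.5, 101 and 93.5 CPM and the treated ones 49.7, 54.9 and 54.4. The difference was -0.85 ± 0.05 (SE, edgeR adjusted p = 1.1e-12), again without overlap. NDUFA7 (-0.89), NDUFB1 (-0.79) and NDUFS6 (-0.69) fell in the same way, each with all treated libraries below vehicle. NDUFS6, whose promoter is shown above, binds zinc near the iron-sulfur chain. It went from 49.7, 56.5 and 52.2 CPM to 31.9, 31.4 and 34.4.

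By role, the falls reached the core and the accessory subunits of complex I alike. 5 of the 7 core subunits fell, among them NDUFS1, NDUFS3, NDUFS8 and NDUFV1, while NDUFV2 (-0.03) and NDUFS7 (0.12) did not pass the test. NDUFS1, the largest core subunit, moved little but evenly, from 112, 117 and 108 CPM to 96.6, 98 and 95.3. Among accessory subunits, 10 of 12 NDUFA, 8 of 11 NDUFB, 1 of 2 NDUFC and 3 of 4 NDUFS or NDUFV genes fell. For complex I as a whole 27 of 36 fell and 2 rose (median -0.27). The 2 that rose were NDUFB2 (0.34 ± 0.12, SE, edgeR adjusted p = 0.015), with 35, 37.6 and 31.2 CPM in vehicle and 46.8, 44.5 and 40 in treated libraries, and NDUFS4 (0.19), whose libraries overlapped with vehicle.

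In complex II, SDHB, SDHC and SDHD fell. SDHB was at 54.5, 56 and 49.3 CPM with vehicle and 37.6, 37.9 and 36.3 with the extract, a log2 difference of -0.52 ± 0.05 (SE, edgeR adjusted p = 2.6e-09). SDHA, the flavoprotein that oxidises succinate, was at 100.1, 109 and 95.1 and then 96.2, 94.2 and 93.7 CPM, groups that overlap (-0.10, adjusted p = 0.078 by edgeR). In complex III, 6 of 9 fell and none of the 9 rose (median -0.39). Both catalytic subunits were among the 6. CYC1, which hands electrons to cytochrome c (chr8:144095027-144097525), was at 137, 145 and 148 CPM and then 89, 86.4 and 86.7, a fall of 0.72 on the log2 scale (SE 0.05, edgeR adjusted p = 1.4e-12). UQCRFS1 went from 236, 282 and 251 CPM to 160.2, 163 and 170.1 (log2 difference -0.64 ± 0.05, SE). The core proteins differed from each other, with UQCRC2 falling (-0.39) and UQCRC1 not passing the test (0.06). The small subunits UQCRB (-0.41), UQCR10 (-0.40) and UQCRQ (-0.22) fell, while UQCRH (-0.06) and UQCR11 (0.04) did not pass.

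Complex IV was more even. 4 of its 11 subunits fell, 2 rose, and the median was 0.00. The share that fell is near the 34.4% of all genes called lower, so these falls do not set complex IV apart from genes at large. The 4 were COX6B1, COX6A1, COX7B and COX5B. COX6B1 was at 289, 297 and 280.1 CPM and then 195, 206 and 210.4 (-0.50 ± 0.05, SE, edgeR adjusted p = 2.2e-08). COX4I1, the subunit through which ATP inhibits the enzyme, rose from 138, 164 and 129.8 CPM to 181, 179.7 and 169 (0.30 ± 0.07, SE, edgeR adjusted p = 5.7e-04). NDUFA4 rose from 82.6, 78.9 and 75.7 CPM to 101, 97.7 and 87.7 (0.27 ± 0.07, SE, edgeR adjusted p = 0.0015). In both, all treated libraries lay above vehicle. COX5A, COX6C, COX7A2, COX7C and COX8A did not pass the test, with log2 differences from -0.07 to 0.16. Whether complex IV differs from the other complexes was not tested. Of the 50 genes with a RefSeq promoter, at least 1 of the 3 motifs was found in 21 of 32 that fell, 7 of 15 that were not called and 2 of 3 that rose.

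**Figure D2:**
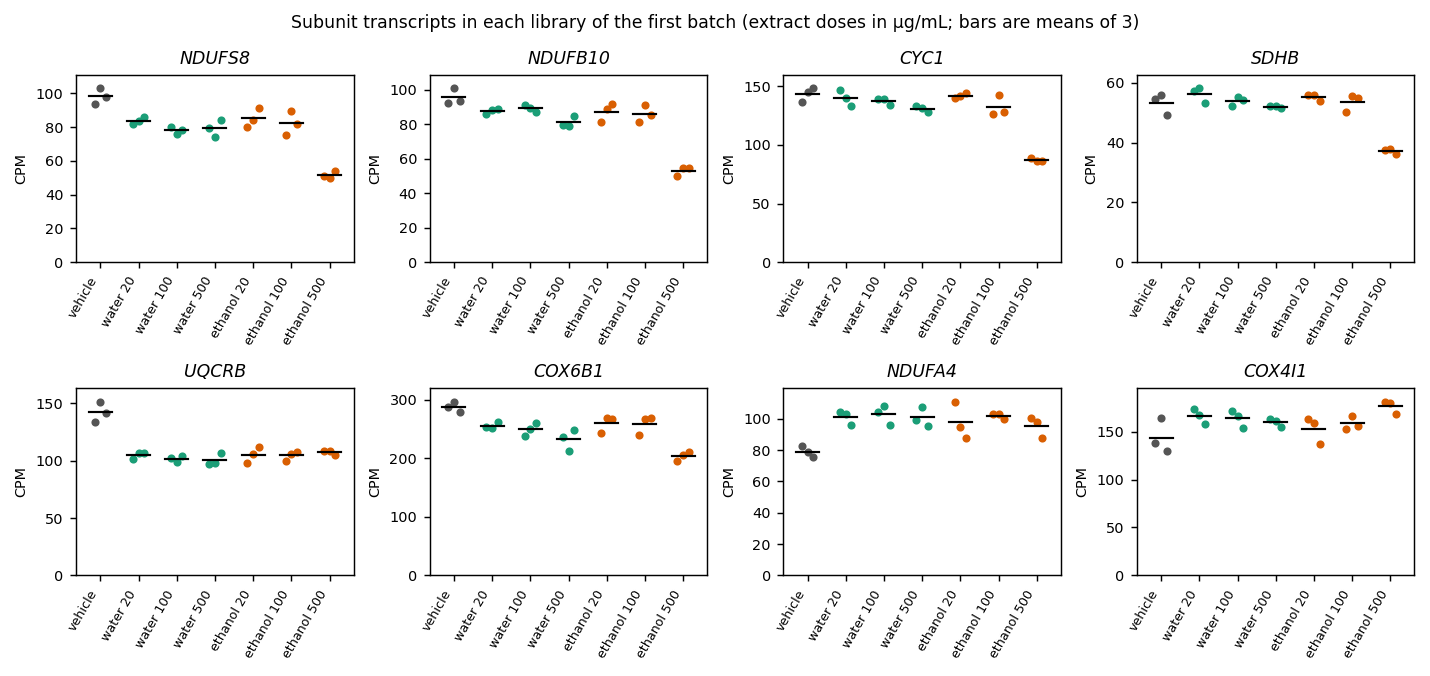
CPM of 8 subunit transcripts in each library of the first batch (y axis, from 0), by group (x axis, extract doses in µg/mL), with a bar at the mean of 3 libraries. For NDUFS8, NDUFB10, CYC1 and SDHB the 3 libraries of ethanol extract at 500 lie below all others, while UQCRB is lower and NDUFA4 higher than vehicle in every extract group.

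Other genes of the pathway were counted in the same fit, from lists of known genes. ATP synthase subunits fell in 16 of 18 cases (median -0.44). ATP5G1, which encodes the c subunit of the rotor, fell by 1.0 on the log2 scale, and ATP5J2 fell by 0.99. CYCS, cytochrome c itself, fell by 0.58. Of 46 assembly factors, 29 fell and 6 rose (median -0.31). ACAD9 and NDUFAF3, both assembly factors of complex I, had differences of -1.54 and -1.32, larger than that of any subunit, while COX19 (0.60) and ECSIT (0.53) rose. Of 11 regulators of mitochondrial biogenesis, 7 fell, among them GABPB1, a subunit of the ETS factor GABP (-0.47), and the mitochondrial transcription factor TFB2M (-0.50), and 2 rose, among them the nuclear receptor ESRRA (0.30). Of 6 isoforms and other subunit genes outside the rule, COX7A2L (0.49), which joins complexes III and IV, and NDUFA4L2 (0.39) rose, and HIGD1A (-0.60) and COX6B2 (-0.93) fell. The mitochondrially encoded subunits fell in 12 of 13 cases (median -0.59), led by MT-ATP8 (-0.94) and MT-ND2 (-0.88).

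Other lists moved differently. Cytosolic ribosomal proteins rose in 56 of 77 cases and fell in 2 (median 0.24). Genes with merged exons under 2 kb had a median of -0.08. Of the 5 epithelial markers, 4 fell, with EPCAM at -2.13 and KRT8 at -0.71, and the summed level of the list was 4038 to 4420 CPM in vehicle, 2619 to 2723 with this extract dose and 3709 to 4317 in the other extract groups. CD14, the only immune marker tested, rose by 0.74 on the log2 scale (SE 0.16, edgeR adjusted p = 3.3e-04), and the summed level of the immune markers was 2.71 to 2.99 CPM in vehicle and 3.93 to 5.53 with this extract dose. The part of these shifts in the result was not tested. With each library's trend over gene length removed, 32 of the 60 fell and 13 rose, so the count of risers depends on that scaling.

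**Figure D3:**
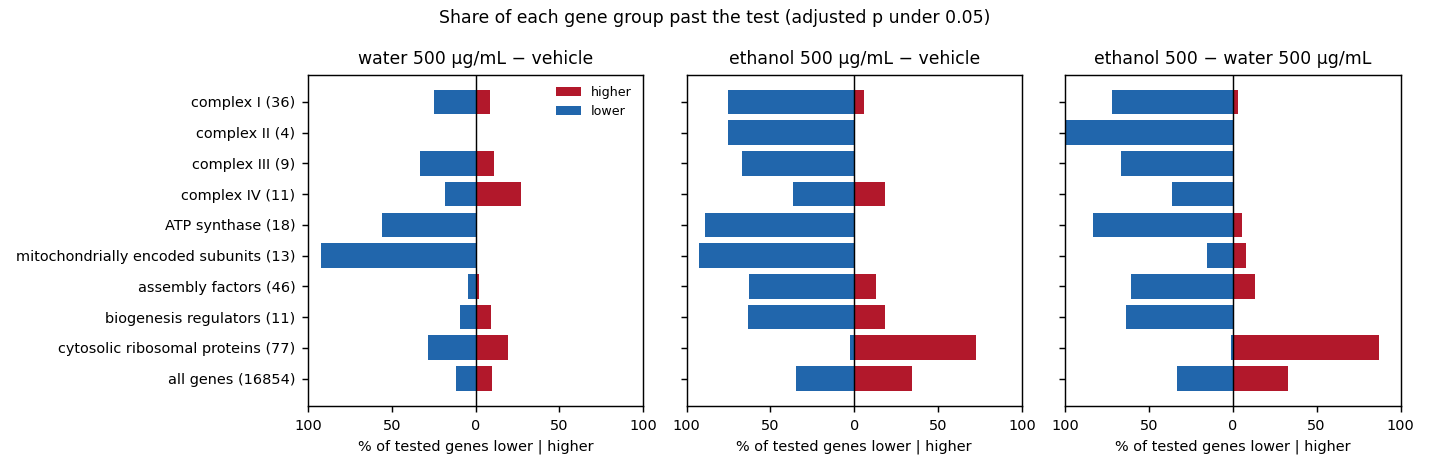
Percent of the tested genes of each list that were higher (red, right of 0) or lower (blue, left of 0) at an edgeR adjusted p under 0.05, for water extract at 500 µg/mL against vehicle, ethanol extract at 500 against vehicle, and the 2 extracts against each other, with the number of genes tested in brackets. With the ethanol extract, complexes I to III and ATP synthase are mostly lower and ribosomal proteins mostly higher. Complex IV has the smallest share of lower genes among the 4 complexes, near that of all genes.

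The ethanol extract was then set against the water extract at the same dose, a comparison without the vehicle libraries. At 500 µg/mL, 40 of the 60 were lower with the ethanol extract and 1 was higher, beside 33.3% and 32.7% of all genes (median -0.26 against 0.00). 36 genes were lower both against vehicle and against the water extract, comparisons that share the treated libraries. NDUFS8 was at 79.7, 74 and 84.3 CPM with the water extract, NDUFB10 at 79.5, 78.7 and 85, and CYC1 at 134, 131 and 128, all above the ethanol libraries given above. The log2 differences were -0.61 ± 0.06 for NDUFS8 (edgeR adjusted p = 5.5e-09), -0.61 ± 0.05 for NDUFB10 (5.3e-10) and -0.58 ± 0.05 for CYC1 (6.8e-11; SE in each case). By complex, 26 of 36 subunits of complex I, 4 of 4 of complex II, 6 of 9 of complex III and 4 of 11 of complex IV were lower. The share in complex IV was again near that of all genes. The only gene called higher was NDUFC1 (0.16), whose libraries overlapped between the extracts. COX4I1 did not pass (0.14, adjusted p = 0.073 by edgeR).

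The lists around the chain were split in this comparison. ATP synthase fell in 15 of 18 cases, assembly factors in 28 of 46, and biogenesis regulators in 7 of 11, and ribosomal proteins were higher in 67 of 77. The mitochondrially encoded subunits were lower in 2 of 13 cases and higher in 1, with a median of -0.04. The mitochondrial share was 14.5 to 16.8% with the water extract and 15.9 to 17.7% with the ethanol extract. With the length trend removed, 30 subunits were lower and 7 higher.

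The doses of the ethanol extract were compared with each other. At 500 against 20 µg/mL, 41 of the 60 were lower and 1 was higher, beside 33.5% and 34% of all genes. NDUFB10 and NDUFS8 fell by 0.72 each and NDUFA3 by 0.71 on the log2 scale. COX4I1 was the gene called higher (0.20, edgeR adjusted p = 0.012), at 163, 159 and 137 CPM with 20 µg/mL and all below the 500 µg/mL libraries. With the length trend removed, 33 were lower and 6 higher. For the water extract, 500 against 20 µg/mL gave 0 calls in either direction by edgeR, beside 1.06% of all genes lower and 0.997% higher. At an unadjusted p under 0.05 there were 10 subunits, DESeq2 called 1 lower, and edgeR with the replicate number as a block called 2 lower.

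At 100 and 20 µg/mL no difference between the extracts was detected in these genes. Ethanol against water extract gave 0 of 60 calls at both doses with edgeR and with DESeq2, beside 0.926% higher and 0.848% lower among all genes at 100 µg/mL and 0.0% and 0.0% at 20 µg/mL. At an unadjusted p under 0.05 there were 3 and 1 of the 60. The log2 differences lay between -0.14 and 0.12 at 100 µg/mL and between -0.13 and 0.08 at 20 µg/mL.

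**Figure D4:**
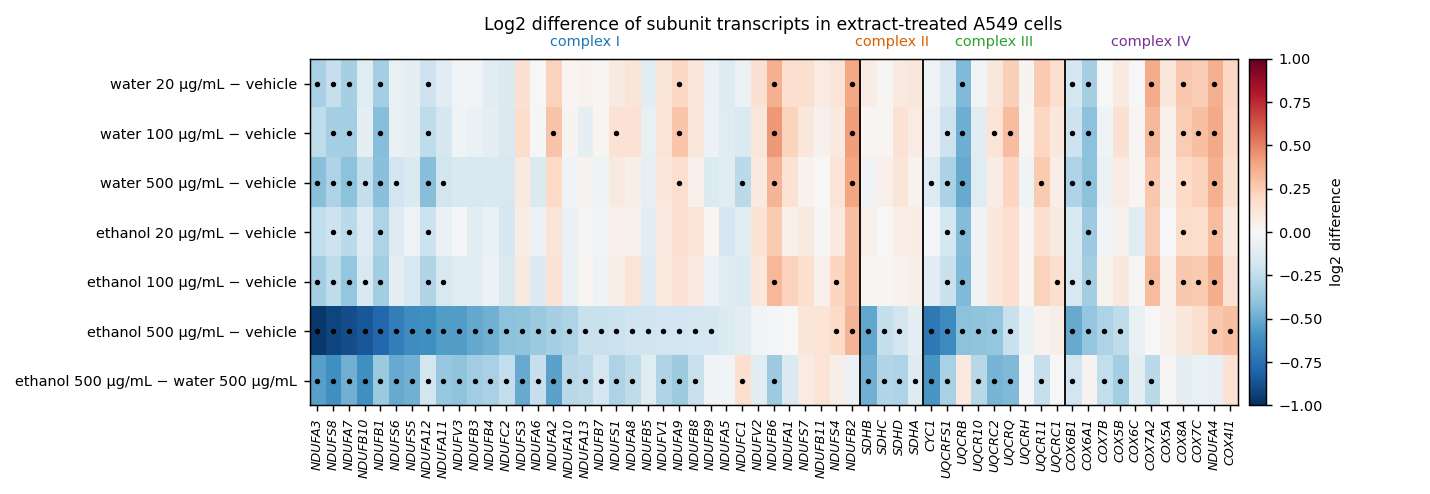
Log2 difference (colour) of the subunit transcripts named in the text (columns, by complex) in 6 comparisons of an extract dose with vehicle and in the comparison of the extracts at 500 µg/mL (rows). Dots mark an edgeR adjusted p under 0.05. The ethanol 500 rows are mostly blue, and in the other 5 rows against vehicle UQCRB and COX6A1 are lower and NDUFA4 higher.

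Against vehicle, the other 5 extract doses gave 9 to 21 calls each. These comparisons share the 3 vehicle libraries. The library numbers of all extract groups share a first digit that the vehicle numbers do not have. Extract and set of library numbers therefore cannot be told apart in any comparison of an extract dose with vehicle. This includes the ethanol extract at 500 µg/mL. With water extract, 14 of the 60 were lower and 7 higher at 500 µg/mL (all genes 11.4% and 9.7%), 8 and 11 at 100 µg/mL (6.98% and 5.58%), and 8 and 6 at 20 µg/mL (5.25% and 4.26%). With ethanol extract, 11 were lower and 7 higher at 100 µg/mL (9.23% and 8.26%), and 7 and 2 at 20 µg/mL (3.82% and 3.63%). The medians lay between -0.01 and 0.03. Over all 6 comparisons with vehicle, 6 genes were called lower each time (NDUFS8, NDUFA7, NDUFA12, NDUFB1, UQCRB and COX6A1), 1 was called higher each time (NDUFA4), and 9 were called in none. 27 of the 40 genes that fell with the ethanol extract at 500 µg/mL were lower in no other extract comparison. Calls repeated over the 6 comparisons were not counted among all genes. These repeated calls therefore do not set the 60 genes apart.

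UQCRB, a small subunit near the ubiquinone site of complex III (chr8:96225920-96235634), was one of the 6 called lower each time. It was at 134, 152 and 142 CPM in vehicle and between 96.9 and 112 in all 18 extract libraries. With water extract at 500, 100 and 20 µg/mL the log2 differences were -0.50, -0.49 and -0.44, and with ethanol extract -0.41, -0.44 and -0.43 (SE 0.05 each). COX6A1 was at 205, 249 and 220.5 CPM in vehicle and between 161 and 186 in the extract libraries, with differences of -0.41, -0.41 and -0.33 with water extract and -0.39, -0.35 and -0.36 with ethanol extract in the same order of doses. NDUFA4 lay between 87.6 and 111 CPM in the extract libraries, all above its vehicle libraries, with differences from 0.27 to 0.38. COX8A, the smallest subunit of the complex, was called higher in 5 of the 6 (up to 0.27), and NDUFB2, NDUFB6 and COX7A2 in 4 each.

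Other measures moved with this pattern. The mitochondrial share was lower in every extract group (means of 15.3 to 16.8%) than in vehicle (19.8%), and mitochondrially encoded subunits were lower in 12 of 13 cases with water extract at 500 and 20 µg/mL and in 7 to 12 of 13 with the other doses. In vehicle the second library was the lowest, at 16.9% against 20.5 and 22.1%. With the mitochondrial share as a covariate, the calls at water 500, 100 and 20 µg/mL were 18, 8 and 7 lower with 0, 1 and 1 higher, and NDUFB2 and NDUFB6 turned negative with water extract at 500 and 20 µg/mL. At ethanol 100 and 20 µg/mL they were 11 and 11 lower with 2 and 0 higher. Their part beyond this covariate was not tested. With the length trend removed, lower and higher calls were 12 and 11 at water 500, 6 and 12 at water 20, 8 and 10 at ethanol 100, and 3 and 4 at ethanol 20 µg/mL.

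The counts at the lower doses also moved with single libraries. Without the third vehicle library, calls went from 19 to 12 at water 100, from 14 to 8 at water 20, from 18 to 11 at ethanol 100 and from 9 to 5 at ethanol 20 µg/mL. Without the first library of the extract group they were 11, 8, 11 and 3, without the second 11 and 7 at water 100 and 20 µg/mL, and without the third 15 at ethanol 20 µg/mL. The comparison of ethanol extract at 500 µg/mL with vehicle kept 39 to 44 calls whichever library was left out.

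With the ingredients, calls among the 60 genes were made in 4 of 24 comparisons with vehicle, mostly of higher levels. With gallic acid at 10 µM, 15 were higher and 1 lower, beside 8.51% and 4.96% of the 18324 genes tested (median 0.48 against 0.02). With hederagenin at 0.4 µM, 8 were higher and 0 lower (all genes 2.19% higher, median 0.61). With catechin at 2 µM 3 were higher (4.5% of all genes), and at 0.4 µM 4 were higher and 1 lower (3.15% and 1.51%). The 3 higher at 2 µM and the 1 lower at 0.4 µM are near those shares, so these counts do not set the 60 genes apart. COX6A1 was called higher in all 4 of these. NDUFA7, NDUFB1, NDUFB10, UQCRFS1 and UQCRB were called higher in 3, and each of these 6 genes had been called lower in at least 3 of the 6 extract comparisons. The spread between libraries was larger here than in the first batch, with a common biological coefficient of variation of 0.212 against 0.0444.

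With gallic acid at 10 µM, NDUFB1 was at 89.2, 28.1 and 70.8 CPM, against 23.5, 24.8 and 23.4 in vehicle. The first and the third library were high and the second lay near vehicle. The difference was 1.39 ± 0.37 (SE, edgeR adjusted p = 0.012). NDUFB9 (352, 91.5 and 250.1 CPM against 89.4, 87.7 and 87.7) and NDUFC2 (257, 73.5 and 199.7 against 68.8, 65.8 and 71.4) repeated this. SDHD, the anchor of complex II, was the 1 gene called lower (-0.49), at 29.4, 41.6 and 33.9 CPM against 48.6, 48.1 and 51.2. The mitochondrial share of these libraries was 2.40, 18.9 and 3.25%. Without the first library 0 genes were called, without the third 4, and without the second 38. Leaving out a vehicle library left 4 or 5 calls. When the 18 libraries that stand apart were left out, only the second library remained in the group and 0 were called, beside 161 higher and 153 lower among all 18437 genes. That setting compares a single library, assumed to vary like the other groups. In a fit of the 2 groups alone 0 were called as well.

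With hederagenin at 0.4 µM the second library was the high one. NDUFB1 was at 49.9, 111 and 29.9 CPM, and the difference from vehicle was 1.41 ± 0.37 (SE, edgeR adjusted p = 0.029). NDUFC2 was at 144, 315 and 71.4 CPM (1.36) and NDUFA7, near the quinone module of complex I, at 24.4, 56.4 and 26.9 (1.12, against 17.6, 17.4 and 14.6 in vehicle). The mitochondrial shares were 3.44, 2.29 and 17.8%. Without the second library 0 were called, without the first 14 and without the third 40, and without single vehicle libraries 0 or 1. Without the libraries that stand apart, only the third remained, and 3 were higher and 9 lower, beside 723 and 745 of all genes in this comparison of a single library.

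With catechin at 2 µM, COX6A1 was at 311, 287 and 317 CPM against 192, 181 and 177 in vehicle (0.73 ± 0.23, SE, edgeR adjusted p = 0.044), with all 3 libraries above vehicle. UQCRFS1 (297, 320.0 and 365 against 233, 228 and 230.1 CPM) and NDUFB10 (97.3, 120.8 and 143 against 83.7, 85.8 and 90.1 CPM) were also higher in all 3, by 0.51 and 0.48 on the log2 scale. The mitochondrial shares were 0.822, 5.23 and 8.54%, the second library held COL1A2 at 485 CPM, and 0 genes were called when any vehicle library was left out. Without 1 of the catechin libraries 6 to 8 were called. Without the libraries that stand apart, the third alone remained, and 50 were higher, beside 2955 higher and 2894 lower among all genes, again for a single library. With catechin at 0.4 µM, NDUFB1 was at 46.6, 58.7 and 64.5 CPM (1.24), NDUFA7 at 24.1, 39.6 and 38.9 (1.05) and UQCRB at 137, 207 and 177 (0.86, against 96.8, 96.9 and 93.7 in vehicle), all without overlap, and SDHD was lower (-0.57). Here too 0 were called without any single vehicle library, or without the second or the third catechin library, and 25 were higher and 11 lower without the libraries that stand apart, beside 3253 and 3016 of all genes. DESeq2 called 18 and 8 genes in these comparisons, 23 with gallic acid at 10 µM and 19 with hederagenin at 0.4 µM.

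Over single libraries of the second batch, the level of the 60 genes was set beside the mitochondrial share. As the median over the 60 genes of log2(CPM + 1) minus the vehicle mean, the 16 ingredient libraries under 5% lay between 0.09 and 1.09 (median 0.42). The 13 libraries at 5 to 10% lay between 0.00 and 0.68 (median 0.23), and the 43 at 10% or more between -0.12 and 0.39 (median 0.04). In 13 of the 24 ingredient groups, the library with the lowest share had the highest level. Each of the 3 libraries of a group would be equally likely to do so if the measures were unrelated. Over all 75 libraries the Spearman correlation of level and share was -0.81. It was -0.88 between the level and each library's own correlation of deviation from vehicle with gene length. Which of these the level follows was not tested. The 18 libraries of albiflorin and benzoic acid lay between -0.12 and 0.29 (median -0.01), and the highest was the third library of benzoic acid at 2 µM with a share of 3.09%, the only one of them under 5%. Other measures moved in the same libraries. The summed epithelial markers, at 5844 to 5923 CPM in vehicle, reached 11103 and 8872 CPM in the first and the third gallic acid library at 10 µM and 12200 in the second hederagenin library at 0.4 µM. With the share as a covariate, 7 genes were called higher with gallic acid at 10 µM, 3 with hederagenin at 0.4 µM and 0 with catechin at either dose. Among genes of merged exons under 2 kb the median log2 difference was 0.26 with gallic acid at 10 µM, 0.27 with hederagenin at 0.4 µM and 0.38 with catechin at 2 µM, and 25, 10 and 8 of 77 ribosomal protein genes were higher. The part of these measures in the ingredient results was not tested beyond the covariate and the length trend.

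**Figure D5:**
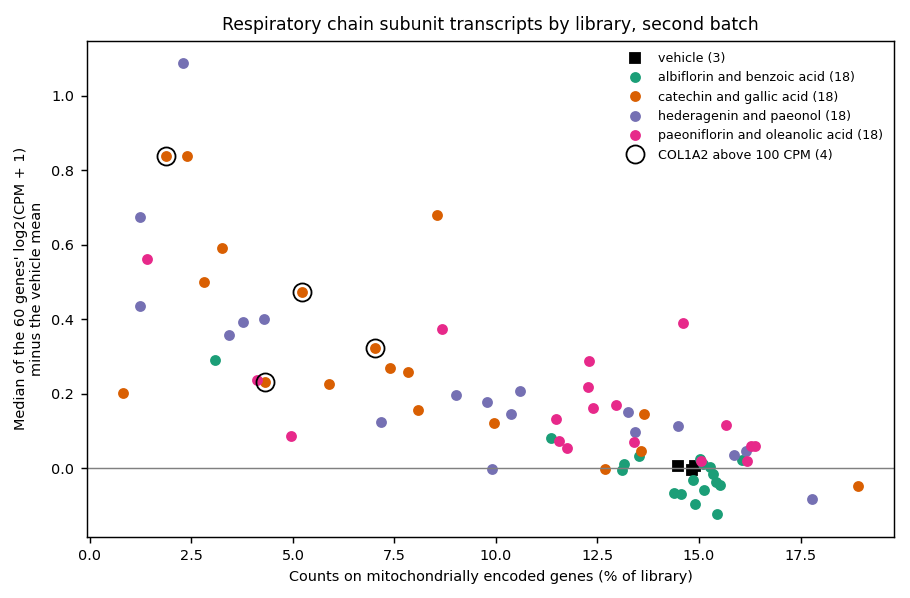
Each point is a library of the second batch. The x axis is the percent of its counts on mitochondrially encoded genes and the y axis the median over the 60 subunit genes of log2(CPM + 1) minus the vehicle mean, with colours for pairs of ingredients, squares for vehicle and rings for the 4 libraries with COL1A2 above 100 CPM. All 16 libraries under 5% lie above 0, up to 1.09.

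In the other 20 comparisons of an ingredient with vehicle, 0 of the 60 were called by edgeR, with 0 to 31 at an unadjusted p under 0.05 and 0 to 5 called by DESeq2. Among all 18324 genes tested, edgeR calls in these 20 differed widely. They were fewest with benzoic acid at 2 µM (1 higher and 3 lower). They were most with oleanolic acid at 10 µM (473 and 342), followed by hederagenin at 10 µM (285 and 159). The medians of the 60 genes lay between -0.04 and 0.42, the highest with gallic acid at 2 µM. The first library of that group stands apart, with a mitochondrial share of 1.87% and COL1A2 at 606 CPM. Without the libraries that stand apart, 2 remained in the group and the median was 0.15. The median of the half-widths of the 95% intervals was 0.47 on the log2 scale or more in each. The number of comparisons with a call depended on the fit, since without the libraries that stand apart 13 of the 24 comparisons with vehicle had one, and in fits of the 2 groups alone 12 of 24. In data simulated from the levels and spread of the whole second batch, changes were placed in the gallic acid group at 10 µM. Of 50 genes changed 1.5-fold, 22% were recovered, and of 50 changed 2-fold, 88%. The simulated libraries of a group shared 1 expected level, unlike the gallic acid libraries described above, so recovery in the real comparison may differ. Between 10 and 0.4 µM of each of the 8 ingredients, 0 of the 60 were called by edgeR, with 0 to 9 at an unadjusted p under 0.05 and 0 or 1 by DESeq2. Among all genes edgeR called 266 higher and 187 lower with oleanolic acid, 117 and 75 with hederagenin, and 59 and 43 with gallic acid. It called 0 with albiflorin, benzoic acid, catechin, paeonol and paeoniflorin.

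3 pairs of related ingredients were compared at the 3 matched doses, which makes 9 comparisons. Library numbers share a first digit within sets of 18 libraries, each of 2 ingredients. The compounds of a pair were never in the same set. Median mitochondrial share was 14.96% for albiflorin and benzoic acid and 7.196% for catechin and gallic acid. It was 9.835% for hederagenin and paeonol and 12.34% for oleanolic acid and paeoniflorin. Compound and set therefore cannot be told apart in these pairs. Hederagenin is oleanolic acid with an added hydroxyl group. At 10 and 2 µM their difference in UQCRFS1 was 0.02 and 0.03 (95% intervals -0.25 to 0.29 and -0.23 to 0.30), and for 57 of the 60 genes the interval lay within a 2-fold difference either way at both doses. At 10 µM the third library of each compound stands apart, with mitochondrial shares of 3.78% (hederagenin) and 4.11% (oleanolic acid). At 0.4 µM, UQCRFS1 was at 358 ± 111 CPM with hederagenin and 277 ± 0.411 with oleanolic acid (SD, n = 3), with an interval from 0.10 to 0.64. 0 of the 60 were called by edgeR or DESeq2, and edgeR called 0 of all 18324 genes tested. 35 of the 60 had an unadjusted p under 0.05, and the second hederagenin library described above is in this group.

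Gallic acid is benzoic acid with phenolic hydroxyl groups. At 10 µM, 18 genes were higher with gallic acid and 0 lower, beside 5.75% of all genes higher (median 0.50 against 0.01). COX6A1 was at 463, 217 and 379 CPM with gallic acid and 199.8, 172 and 176 with benzoic acid, a difference of 0.95 with a 95% interval from 0.50 to 1.41 (edgeR adjusted p = 0.010). NDUFA7 (1.21) and UQCRB (0.86) were also higher in all 3 libraries. The gallic acid libraries are those described above, and the calls fell to 0 without the first of them, to 1 without the third and to 0 without the libraries that stand apart, while 43 were called without the second. Without benzoic acid libraries 1, 2 and 3 in turn, 4, 0 and 0 were called. With the length trend removed 11 were called, and with the mitochondrial share as a covariate 2.

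At 2 and 0.4 µM, 0 of the 60 genes were called between gallic and benzoic acid by edgeR or DESeq2, with 9 and 4 at an unadjusted p under 0.05. Of all 18324 genes tested, edgeR called 0 at either dose. The interval of COX6A1 ran from 0.03 to 0.93 at 2 µM and from -0.09 to 0.81 at 0.4 µM. Paeoniflorin and albiflorin, isomeric monoterpene glycosides, gave 0 calls at all 3 doses with both tools, with 3, 8 and 4 at an unadjusted p under 0.05 at 10, 2 and 0.4 µM. Among all genes edgeR called 0 at these doses as well, so the missing calls are not particular to the 60. The intervals of UQCRFS1 were -0.07 to 0.46, 0.00 to 0.54 and -0.07 to 0.47, and the medians of the 60 were 0.21, 0.28 and 0.27. For 49, 41 and 49 of the 60 the interval lay within a 2-fold difference either way. A missing call does not show that the compounds of a pair act alike. Nor does a call separate the compound from the set of library numbers. The same holds against vehicle, whose numbers start with another digit.

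Over group means, the widest ranges in the first batch were those of NDUFA3 (0.93 on the log2 scale), NDUFS8 (0.91) and NDUFA7 (0.84), each from the ethanol extract at 500 µg/mL to vehicle. The narrowest were those of UQCRH (0.09), COX5A (0.11) and NDUFB11 (0.14). In the second batch, COX6C (1.44), NDUFA1 (1.28) and NDUFB7 (1.3) ranged most and SDHC (0.25), UQCRC1 (0.28) and NDUFA9 (0.29) least. The highest groups of COX6C, NDUFA1 and NDUFB7 were gallic acid at 10 µM and catechin at 2 µM, groups with libraries that stand apart.

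Some members share reads with copies. RSEM divides reads that match several genes, which leaves counts that are not whole. Counts were whole in every library for 29 of the 60 genes and not whole in most libraries for 18. For 35 genes the table held pseudogene or readthrough symbols of the same stem. Their counts came to a median of 9.09% of the gene's own for UQCRH and 7.01% for SDHA, and to under 5% for the other 33. Among these were UQCRFS1 (3.02%), COX6A1 (1.28%) and NDUFB2 (1.23%). The percentages do not bound the reads that RSEM divided. Counts of NDUFA3 (0.0875%) and of NDUFA13, with 0 such symbols, were not whole in all 96 libraries. The use of strand in counting is not stated, so reads of overlapping antisense genes cannot be told apart from those of the members.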

How the data were processed

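RNA of 96 A549 libraries was sequenced with a directional kit, per the labels. The authors deposited expected counts per gene for 60675 genes. The tools named, per the submitters' processing notes, are RSEM 1.3.3 for counting, STAR, Trim Galore and FastQC, with the build GRCh38 (hg38). The sources used here give neither settings nor annotation. 89.2% of the deposited values were whole numbers, and all were rounded. The members were found by symbol. The members and the gene lists were chosen with earlier results of these data known.

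The groups of a batch shared 1 fit, made by edgeR 4.0.16 in R 4.3.3 (quasi-likelihood F-test, TMM factors, filterByExpr, Benjamini-Hochberg adjustment over all genes, threshold 0.05). 16854 and 18324 genes passed the filter, with all 60 members in both. The standard error is the log2 difference divided by the square root of F. CPM used TMM-adjusted library sizes. DESeq2 1.42.0 was an alternative. The test was checked on data simulated from the levels and spread of each whole batch. With changes placed in the group of ethanol extract at 500 µg/mL or gallic acid at 10 µM, 11 of 202 and 11 of 118 calls were false. No pair of replicates was identical (0 of 96).

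Members named in a comparison passed the test without overlap of libraries, up to 8 in each direction for extracts against vehicle and up to 3 elsewhere, with up to 2 in each direction from each other list, and members are named by level. 1 member is counted in every total but not reported here by name or in the figures. Others are named with their values to account for each complex. Replicate numbers correlated above 0.1 in every pair in 1 of 6 extract and 0 of 24 ingredient comparisons with vehicle, in 0 of 3 between extracts, in 5 of 10 between doses and in 4 of 9 between related ingredients. They come from the labels, which do not say that a number marks a shared culture or day. Library totals limit precision for counting error only.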

Additional observations from a re-analysis of the deposited data

How the results depend on the processing

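For the ethanol extract at 500 µg/mL against vehicle, 42 to 49 of the 60 genes were called under every alternative that used all libraries, and 39 to 44 when 1 library was left out. These counts join both directions. With the length trend removed, fewer were lower and more were higher, as given above. The split by direction is not given for the other settings of this comparison. The weaker comparisons moved. The counts below are of the 60 genes without the calls among all genes, so a change is not shown to be particular to the 60. With no filter on low counts, calls were 22 with water extract at 20 µg/mL, 18 with ethanol extract at 20 µg/mL, 2 for water extract at 500 against 20 µg/mL, 0 and 1 with catechin at 2 and 0.4 µM, 4 with hederagenin at 0.4 µM and 10 for gallic against benzoic acid at 10 µM. With the replicate number as a block they were 22 with water extract at 20 µg/mL, 16 with ethanol extract at 20 µg/mL, and 2 for water extract at 500 against 20 µg/mL. The numbers share a correlation above 0.1 in the last of these 3 comparisons only. Where the numbers paired the samples, the block changed no other call from none to some.

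With the mitochondrial share as a covariate, calls were 9 with water extract at 100 and 8 at 20 µg/mL, 2 for water extract at 500 against 20 µg/mL, 0 with catechin at 2 and at 0.4 µM, 7 with gallic acid at 10 µM, 3 with hederagenin at 0.4 µM, 2 for gallic against benzoic acid, and 2 of 8 dose comparisons had a call. Under it NDUFB2 and NDUFB6 reversed, to -0.070 and -0.048 with water extract at 500 µg/mL and to -0.078 and -0.026 at 20 µg/mL. With the length trend removed, gallic against benzoic acid gave 11. Without the libraries that stand apart, calls were 50 and 36 with catechin at 2 and 0.4 µM, 0 with gallic acid at 10 µM and 0 for gallic against benzoic acid, and 13 of 24 vehicle, 1 of 8 dose and 3 of 9 pair comparisons had a call. The first batch has no such library, so this setting gave no value there.

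Fits of the 2 groups alone gave 1 with ethanol extract at 20 µg/mL, 2 for water extract at 500 against 20 µg/mL, 23 and 39 with catechin at 2 and 0.4 µM, 0 with gallic acid, 0 with hederagenin and 0 for gallic against benzoic acid, with calls in 12 of 24 vehicle, 1 of 8 dose and 0 of 9 pair comparisons. DESeq2 gave 1 for water extract at 500 against 20 µg/mL, 18 and 8 with catechin at 2 and 0.4 µM, 19 with hederagenin, and calls in 1 of 8 dose comparisons. The cause of these differences was not tested. Leaving out 1 library gave 15 to 26 with water extract at 500, 11 to 24 at 100 and 7 to 21 at 20 µg/mL, 11 to 21 and 3 to 15 with ethanol extract at 100 and 20 µg/mL, 36 to 42 between extracts at 500 µg/mL, 0 to 0 at 100 and at 20 µg/mL, 0 to 1 for water and 37 to 41 for ethanol extract at 500 against 20 µg/mL. It gave 0 to 8 and 0 to 4 with catechin at 2 and 0.4 µM, 0 to 38 with gallic acid, 0 to 40 with hederagenin and 0 to 43 for gallic against benzoic acid. It was not run for the other ingredient comparisons. Where it leaves 1 library in a group, that library is assumed to vary like the other groups.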
